A study of Mus musculus with 4 samples.

Results

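The genes described here are 9 genes of the pericellular protease system and its inhibitors in mouse airway smooth muscle: the serpin genes Serpine2, Serpinf1, Serpinh1 and Serping1, the plasminogen activator genes Plat and Plau, the cathepsin gene Ctsk and the secreted serine protease genes Htra1 and Htra3. They were taken by gene symbol from the deposited expression table, in which each probe set carries an Entrez gene number, and all 9 were found among 23740 named genes. Airway smooth muscle cells were collected by flow cytometry from adult Acta2-hrGFP;Cspg4-DsRED mice as hrGFP+DsRED- cells, so the green reporter of the smooth muscle actin gene was required and the red reporter of the gene Cspg4 was excluded; all 4 groups carried both transgenes. VAS mice ate a normal diet sufficient in vitamin A, with 15 IU of vitamin per g. VAD mice ate a vitamin A-deficient diet with less than 0.1 IU per g, for 3 days in the sample label and in 1 place of the protocol and for 5 days in another. CTR mice ate a powdered, vitamin A-sufficient diet mixed with corn oil, the vehicle, for 3 days, and BMS mice ate the same powdered diet that also held BMS, a potent antagonist that blocks every retinoic acid receptor, dosed at 5 mcg per g. Each group is 1 array of RNA pooled from 3 mice, so the design gives no spread between mice, no group has a replicate, and every difference below compares single arrays. Values are log2 expression. They compare arrays for 1 gene and do not order the genes by abundance.

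Plasminogen activators are serine proteases that cut plasminogen to plasmin, a broad protease that degrades fibrin and matrix and activates other proteases. Serpins are a family of proteins that mostly trap serine proteases by offering a loop as bait, although some members, such as the collagen chaperone encoded by Serpinh1, inhibit no protease. Cathepsin K is a cysteine protease that cleaves collagen and elastin. The proteins of Htra1 and Htra3 are secreted serine proteases that act on matrix proteins and on growth factors of the TGF-beta family. In the airway these systems act on the matrix around the muscle. The comparisons ask how the RNA of these genes depended on dietary vitamin A and on signalling through retinoic acid receptors.

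Of the 9 genes, Serpinf1, Ctsk and Htra3 were at least 2-fold higher in BMS than in CTR, and the upstream sequences of these 3 genes are given with that of Htra1, the relative of Htra3, for contrast. Each is the 250 bases before the RefSeq start on the strand of the gene, from assembly GRCm38.p6, and capitals mark every CpG dinucleotide. Serpinf1 is at chr11:75422624-75422873 on the minus strand, Ctsk at chr3:95498960-95499209 on the plus strand, Htra3 at chr5:35679781-35680030 on the minus strand and Htra1 at chr7:130935953-130936202 on the plus strand.
Serpinf1: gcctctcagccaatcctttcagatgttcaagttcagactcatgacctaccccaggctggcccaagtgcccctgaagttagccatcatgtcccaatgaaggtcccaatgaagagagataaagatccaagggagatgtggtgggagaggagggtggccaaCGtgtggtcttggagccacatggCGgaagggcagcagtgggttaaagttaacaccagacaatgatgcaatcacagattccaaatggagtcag
Ctsk: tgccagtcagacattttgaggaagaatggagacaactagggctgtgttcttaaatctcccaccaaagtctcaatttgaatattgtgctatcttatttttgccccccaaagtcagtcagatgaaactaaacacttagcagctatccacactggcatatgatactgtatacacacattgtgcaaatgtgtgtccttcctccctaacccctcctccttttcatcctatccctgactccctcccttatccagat
Htra3: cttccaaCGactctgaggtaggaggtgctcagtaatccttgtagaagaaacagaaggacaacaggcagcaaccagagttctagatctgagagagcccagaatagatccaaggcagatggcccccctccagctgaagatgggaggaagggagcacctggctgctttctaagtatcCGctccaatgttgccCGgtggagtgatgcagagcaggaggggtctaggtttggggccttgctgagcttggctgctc
Htra1: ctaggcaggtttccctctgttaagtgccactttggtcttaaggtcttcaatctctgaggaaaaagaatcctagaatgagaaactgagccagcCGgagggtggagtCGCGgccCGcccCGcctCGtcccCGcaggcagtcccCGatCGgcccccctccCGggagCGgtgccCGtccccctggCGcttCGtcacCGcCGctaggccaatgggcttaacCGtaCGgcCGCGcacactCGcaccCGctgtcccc

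The upstream windows of Serpinf1, Ctsk and Htra3 held 2, 0 and 3 CpG dinucleotides, against 22 in Htra1. RefSeq windows were matched for 6 of the 9 genes, and the other 2 of these, Serpine2 and Serpinh1, held 34 and 11. Among 32841 windows of the same length 37.8% held 3 or fewer CpG, and the median was 6. The GC content was 51.6% for Serpinf1, 43.2% for Ctsk, 54.8% for Htra3, 64.8% for Htra1, 63.6% for Serpinh1 and 78.8% for Serpine2, with a median of 52.4% over all windows. This comparison of CpG content was made after the expression values were seen.

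The hexamers AGGTCA and AGTTCA, which retinoic acid receptors bind when paired, were searched on both strands. Serpinf1 held AGTTCA beginning 221 bases before the start and AGGTCA on the opposite strand, as TGACCT, beginning 209 bases before it, and the sites did not overlap. Serpinh1 held AGTTCA beginning 202 bases before the start, and the other 4 windows held neither. AGGTCA was in 14% and AGTTCA in 11.8% of all windows. The search for pairs in direct repeat used the wider form RGKTCA, where R is A or G and K is G or T. With spacers of 1, 2 or 5 bases, the DR1, DR2 and DR5 elements, such pairs were in none of the 6 windows. They were in 0.164%, 0.174% and 0.0883% of all windows. These matches describe letters in a short window.

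Across the 4 arrays some of the 9 genes varied and others were steady. Serpinf1, Ctsk and Htra3 spanned at least 2-fold between their lowest and highest array, with ranges of 1.99, 1.13 and 1.01 on the log2 scale. That is 3 of 9 genes, where 4.78% of the 12693 genes past a filter on low values did so. The filter kept genes whose highest value reached the median of all named values, 6.07, and all 9 genes passed it. Serpine2, Serping1, Serpinh1 and Plat spanned between 0.25 and 0.41, and Htra1 and Plau 0.74 and 0.84. CTR was the lowest array for 6 of the 9 genes, where it was the lowest for 27% of all genes. BMS was the highest array for 4, where it was the highest for 27.3% of all genes.

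**Figure D1:**
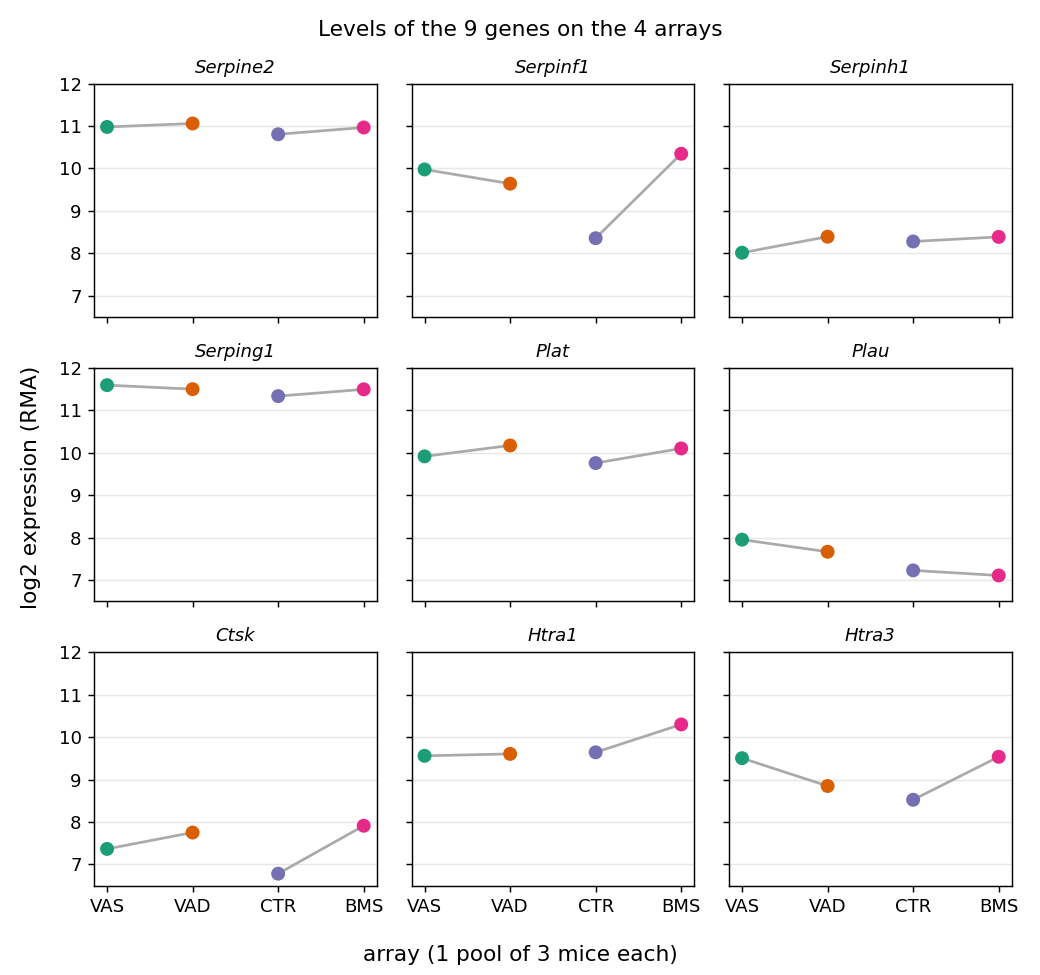
Log2 expression of each of the 9 genes (vertical axis) on the VAS, VAD, CTR and BMS arrays (horizontal axis), 1 point per array, with grey lines joining the arrays of 1 experiment. Serpinf1 lies between 8.36 in CTR and 10.35 in BMS, while Serpine2 lies between 10.81 and 11.06.

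Markers of smooth muscle and of other cells were counted by the same filter, which sets a level and does not show detection above background. Acta2, the gene of the green reporter, stood at 11.96, 12.12, 11.98 and 11.95 in VAS, VAD, CTR and BMS, and all 8 smooth muscle markers passed the filter. Cspg4, the gene of the excluded reporter, passed it too, at 7.71, 8.22, 8.08 and 7.98, as did the other 4 pericyte markers. All 10 adventitial fibroblast markers passed it, as did 5 of 7 alveolar epithelial, 2 of 5 airway epithelial, 5 of 6 endothelial, 4 of 6 macrophage and monocyte, 3 of 5 lymphocyte, 2 of 4 mesothelial and 2 of 3 osteoclast-type macrophage markers. The airway epithelial and mesothelial markers that passed lay near the cutoff of 6.07 (Scgb1a1 reached 6.27, Krt8 6.49, Wt1 6.34 and Upk3b 6.59). In RNA of a pool of sorted cells, fewer cells of a type and less RNA per cell cannot be told apart. The array medians over all probe sets were between 5.97 and 6.02.

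Among the serpin genes Serpinf1 varied most. It encodes pigment epithelium-derived factor, a secreted serpin without protease inhibition that limits vessel growth. Serpinf1 (Entrez gene 20317) stood at 9.98 in VAS, 9.64 in VAD, 8.36 in CTR and 10.35 in BMS. CTR was low, and the other 3 arrays lay within 0.70 of each other. BMS was 1.99 above CTR on the log2 scale, or 3.97-fold, the 22nd highest of 12693 differences. VAD was 0.34 below VAS. CTR was also low against VAS, with a difference of -1.62, or 3.08-fold, the 53rd lowest between the controls, while BMS was 0.37 above VAS.

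Serpine2, Serping1 and Serpinh1 varied little. Serpine2, an inhibitor of thrombin and of plasminogen activators, stood at 10.98, 11.06, 10.81 and 10.97 in VAS, VAD, CTR and BMS (Entrez gene 20720). Its differences were 0.08 for VAD minus VAS and 0.16 for BMS minus CTR, beside -0.17 for CTR minus VAS. Serping1, which inhibits the proteases of the first complement component and plasma kallikrein, stood at 11.60, 11.50, 11.34 and 11.50 (Entrez gene 12258). The VAD and BMS values of Serping1 both differed from VAS by -0.10, and the differences within the experiments were -0.10 and 0.16. Serpinh1, a chaperone that binds procollagen in the endoplasmic reticulum, stood at 8.02, 8.39, 8.28 and 8.39 (Entrez gene 12406). VAS was its low array and both treated arrays lay above both controls, with VAD 0.38 above VAS and BMS 0.11 above CTR.

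The plasminogen activator genes differed from each other in direction. Plat, the tissue-type activator, stood at 9.92 in VAS, 10.17 in VAD, 9.76 in CTR and 10.10 in BMS (Entrez gene 18791). Both treated arrays lay above both control arrays for Plat, by 0.26 in VAD minus VAS and by 0.34 in BMS minus CTR. Plau, the urokinase-type activator, stood at 7.95, 7.67, 7.23 and 7.11 in the same order (Entrez gene 18792). Of the 9 genes it alone lay below its control in both experiments, with differences of -0.29 and -0.12. Both arrays of the antagonist experiment lay below both arrays of the diet experiment for Plau, and CTR was 0.72 below VAS, or 1.65-fold.

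Ctsk was higher in the treated array in both experiments, more so in BMS. It stood at 7.37 in VAS, 7.75 in VAD, 6.78 in CTR and 7.91 in BMS (Entrez gene 13038). The treated arrays lay above the control arrays with no overlap, as they did for 3 of the 9 genes (Ctsk, Plat and Serpinh1), where 14.6% of all genes did so. VAD was 0.39 above VAS, the 657th highest of 12693 differences, and BMS was 1.13 above CTR, or 2.19-fold, the 112th highest. CTR was 0.58 below VAS, so BMS stood 0.55 above VAS and VAD 0.97 above CTR.

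The HtrA genes showed separate patterns. Htra1 stood at 9.56 in VAS, 9.61 in VAD, 9.64 in CTR and 10.30 in BMS (Entrez gene 56213). BMS was its single high array, 0.66 above CTR, or 1.58-fold, and 0.74 above VAS, while the other 3 arrays lay within 0.08 of each other. Among the 4 genes at least 1.5-fold higher in BMS than in CTR, Htra1 was the gene for which CTR was not the low array. Htra3 stood at 9.50, 8.85, 8.52 and 9.54 (Entrez gene 78558). VAS and BMS were high and VAD and CTR low. VAD was 0.66 below VAS, or 1.58-fold, the 202nd lowest difference of that comparison, and BMS was 1.01 above CTR, or 2.02-fold. BMS and VAS differed by 0.03 for Htra3.

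**Figure D2:**
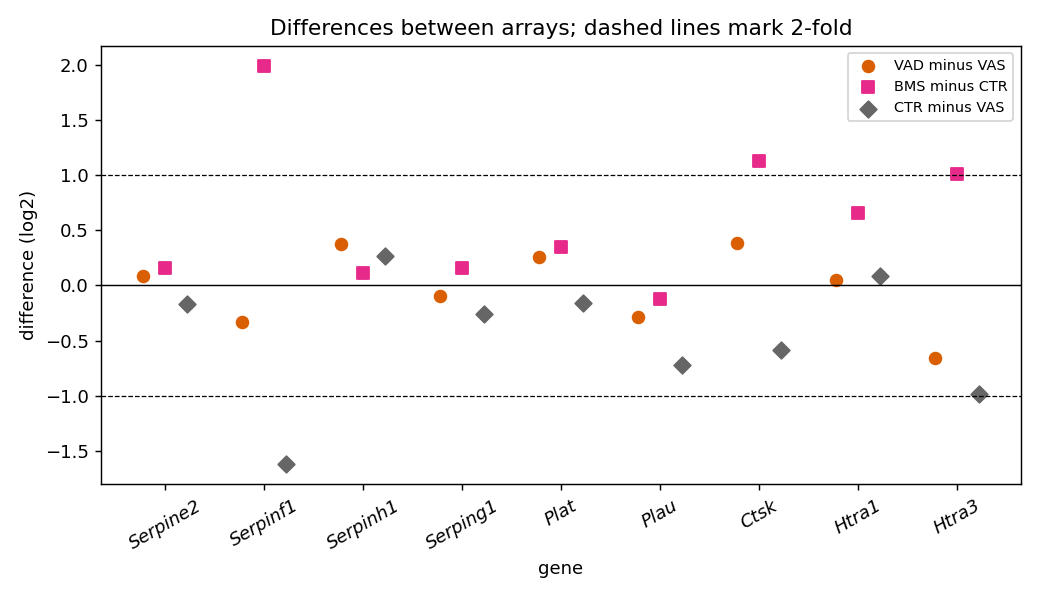
Difference in log2 expression (vertical axis) for each of the 9 genes in VAD minus VAS (circles), BMS minus CTR (squares) and CTR minus VAS (diamonds), with dashed lines at 2-fold. Serpinf1, Ctsk and Htra3 lie above the upper line in BMS minus CTR, Serpinf1 below the lower line in CTR minus VAS, and no gene passes a line in VAD minus VAS.

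In the diet experiment none of the 9 genes was 2-fold apart. Among all 12693 genes 0.236% were at least 2-fold higher in VAD and 0.41% at least 2-fold lower. The median of the 9 was 0.05, against 0.01 over all genes, and 5 of 9 lay above 0, where 51.5% of all genes did. Htra3 was the gene at least 1.5-fold lower, where 2.14% of all genes were. Against CTR in place of VAS, Serpinf1 was 1.29 higher in VAD, where 1.41% of all genes were at least 2-fold higher.

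In the antagonist experiment 3 of 9 genes were at least 2-fold higher and 0 lower in BMS, where 1.06% of all genes were higher and 0.276% lower. At 1.5-fold the count was 4, where 3.13% of all genes were as much higher. The median of the 9 genes was 0.34, against 0.01 over all genes. Above 0 were 8 of 9, all but Plau, where 51.6% of all genes were above 0. Against VAS in place of CTR the count at 2-fold was 0 of 9, where 0.551% of all genes were higher. Htra3 was nearest to the threshold and was 0.99 to 1.00 higher when the 4 arrays were normalized again.

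Between the controls 1 of 9 genes, Serpinf1, was at least 2-fold lower in CTR, where 1.69% of all genes were, and 0 were higher, where 0.331% were. At 1.5-fold 3 of 9 were lower, Serpinf1, Htra3 and Plau, where 5.91% of all genes were. The median of the 9 was -0.26, against 0.002 over all genes, and 2 of 9, Serpinh1 and Htra1, lay above 0, where 50.4% of all genes did. The 2 control pools came from separate experiments, with plain or powdered food, without or with corn oil, and from other mice, and which of these goes with the difference cannot be told apart. VAS is shared by VAD minus VAS and CTR minus VAS, and CTR by BMS minus CTR and CTR minus VAS, so a low CTR value of a gene enters both of the latter with opposite sign.

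**Figure D3:**
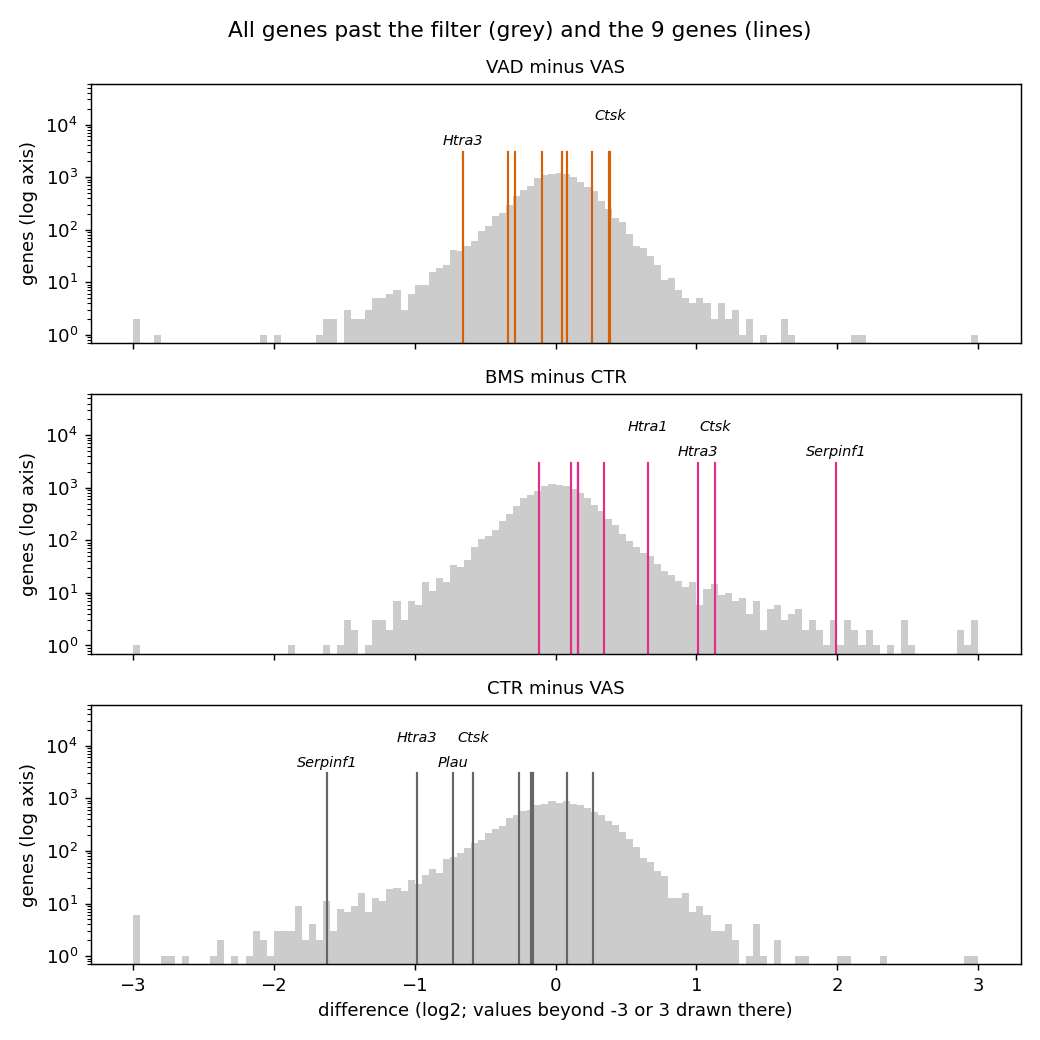
Numbers of genes (vertical axis, log scale) by difference in log2 expression (horizontal axis) for the 12693 genes past the filter in grey, with a line for each of the 9 genes, in VAD minus VAS (top), BMS minus CTR (middle) and CTR minus VAS (bottom). Serpinf1 lies in the upper tail at 1.99 in BMS minus CTR and in the lower tail at -1.62 in CTR minus VAS.

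The joint comparison set VAD and BMS against VAS and CTR, with the experiment as a block, in limma across all 12693 genes. It is the comparison with 2 arrays on each side and has 1 residual degree of freedom. No gene of the 9 was called, and limma called 0 of all genes (0%) at an adjusted p of 0.05. Of the 12693 genes 487 had an unadjusted limma p under 0.05, a smaller share than 0.05 itself. Ctsk had the lowest unadjusted limma p of the 9, 0.0167, with a limma adjusted p of 1. Its difference was 0.76 ± 0.21 (SE, 2 arrays against 2). Ctsk was higher in 2 of 2 experiments, each with 1 array per group, as were Serpine2, Serpinh1, Plat and Htra1. The SE in this fit uses a variance that limma shares across genes. It has 3.87 degrees of freedom from all genes against 1 from the gene itself, so it is not the spread of 1 gene alone. The difference was 0.30 ± 0.13 for Plat and 0.83 ± 0.54 for Serpinf1, each with a limma adjusted p of 1. Htra3 and Serping1 had differences of 0.18 ± 0.40 and 0.03 ± 0.14 in that fit, with opposite signs in the 2 experiments. Opposite signs held for 3 of the 9 genes, Serpinf1, Serping1 and Htra3, and for 51.2% of all genes. A missed threshold with so few arrays does not show that the levels were alike.

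Of 23 other listed genes of the plasminogen system, 17 passed the filter. In BMS minus CTR 1 was at least 2-fold higher and 0 lower, with a median of -0.03. The higher gene was Serpini1, neuroserpin, an inhibitor of the tissue-type activator, at 5.89, 5.97, 5.58 and 6.86 in VAS, VAD, CTR and BMS. Serpini1 passed the filter only through BMS, and its CTR value lay below the cutoff. Mrc2, an endocytic collagen receptor, was 0.77 higher in BMS than in CTR. None was 2-fold apart in VAD minus VAS (median 0.05) or CTR minus VAS (median -0.10). Plg, plasminogen itself, was below the filter on all arrays, between 5.04 and 5.17. Plaur, the receptor of the urokinase-type activator, stood at 9.97, 10.13, 9.76 and 9.63. Procr, the endothelial protein C receptor, and Tfpi2, a Kunitz-type inhibitor of plasmin, differed by -0.93 and -0.51 in CTR minus VAS and by 0.36 and -0.15 in BMS minus CTR.

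Among other serpins 7 of 20 measured genes passed the filter, and all 7 lay above 0 in BMS minus CTR with a median of 0.36. Serpina1b, of the alpha-1-antitrypsin genes, stood at 7.60, 7.17, 4.95 and 6.52 in VAS, VAD, CTR and BMS. It was 1.56 higher in BMS than in CTR and differed by -2.64 in CTR minus VAS, the pattern of Serpinf1 with BMS below VAS. Serpinb1a, an inhibitor of neutrophil proteases, was 1.06 higher in BMS than in CTR and -1.14 in CTR minus VAS. The list counted 2 higher and 0 lower at 2-fold in BMS minus CTR, 0 and 3 in CTR minus VAS (median -0.69), and 0 and 0 in VAD minus VAS (median 0.26). Serpina3c differed by -1.50 in CTR minus VAS, and Serpinb6b by 0.91 in VAD minus VAS. The CTR values of Serpina1b, Serpinb1a (5.66) and Serpina3c (4.69) lay below the cutoff of 6.07. The Serpina1, Serpina3 and Serpinb genes of the mouse lie in clusters of near-identical copies, so a probe set can read more than 1 of them.

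Other cathepsins and cystatins were slightly higher in BMS as a list. Of 18 listed genes 13 passed the filter, and all 13 lay above 0 in BMS minus CTR with a median of 0.23, 1 of them at least 2-fold higher. That gene was Ctsh, an aminopeptidase of lysosomes that alveolar type 2 cells also use for surfactant protein processing, at 8.09, 7.85, 6.91 and 8.58 in VAS, VAD, CTR and BMS. Sftpc, surfactant protein C of those cells, stood at 10.86, 9.28, 7.32 and 9.15, and the part of such cells in the Ctsh values was not tested. Ctsz was 0.61 higher in BMS than in CTR, Ctss differed by -0.67 and Cstb, a cystatin, by -0.74 in CTR minus VAS. The list median was -0.04 in VAD minus VAS, with none 2-fold apart, and -0.22 in CTR minus VAS, with 1 lower.

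Among other HtrA and matrix serine proteases 12 of 14 passed the filter. The surface dipeptidyl peptidase genes Fap and Dpp4 were the genes at least 2-fold higher in BMS than in CTR, by 2.47 and 2.20. Fap stood at 6.60, 5.86, 6.01 and 8.47 in VAS, VAD, CTR and BMS and is also on the fibroblast marker list. Dpp4 stood at 5.31, 5.98 and 8.18 in VAD, CTR and BMS, with VAS between CTR and BMS. For both genes BMS was the high array and VAD the low one, and the VAD and CTR values lay below the cutoff of 6.07. The list median was 0.19 in BMS minus CTR, -0.15 in VAD minus VAS with 0 higher and 2 lower (Dpp4 and Prss35), and -0.19 in CTR minus VAS with 0 higher and 3 lower (Dpp4, Prss35 and Htra4). Htra4 stood at 7.41, 7.27, 6.17 and 6.66, so of the HtrA genes Htra3 and Htra4 had CTR as the low array.

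Genes of collagen folding and secretion, the setting in which Serpinh1 acts, were higher in BMS as a list while Serpinh1 was 0.11 higher. Of 22 measured genes 20 lay above 0 in BMS minus CTR, with a median of 0.39 and none 2-fold apart. Colgalt2, a collagen galactosyltransferase, was 0.85 higher, the prolyl isomerase gene Fkbp14 0.82 and the lysyl hydroxylase gene Plod1 0.41. Colgalt2 passed the filter only through BMS, at 6.71. Col1a1 and Col1a2, the chains of type I collagen, were 0.41 and 0.51 higher. In VAD minus VAS 16 of 22 lay above 0 with a median of 0.14, led by Plod1 with 0.65, beside 0.38 for Serpinh1. In CTR minus VAS the median was 0.09 and Col3a1 differed by 0.64.

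Of 15 genes past the filter on the list of complement and contact system genes, which holds the targets of Serping1, 13 lay below 0 in CTR minus VAS. The contact system genes Klkb1, F12 and Kng1 were below the filter and are not among the 15. Of the 15 genes 6 were at least 2-fold lower in CTR than in VAS and 0 higher, with a median of -0.79, against -0.26 for Serping1. C1qb and C1qc, chains of the recognition protein of the classical pathway, differed by -1.36 and -1.40, and C2 by -1.03. C1qc passed the filter only through VAS, at 6.12, and the CTR value of C1qb, 5.47, lay below the cutoff. Masp2, a protease of the lectin pathway, and C4b differed the other way, by 0.88 and 0.40. Cd55, a membrane inhibitor of complement, stood at 8.73, 8.26, 7.23 and 8.75 in VAS, VAD, CTR and BMS. In BMS minus CTR 1 of 15, Cd55, was at least 2-fold higher, by 1.52, with a list median of 0.48. C1ra and C1s1, the proteases that Serping1 binds, differed by 0.58 and 0.07 in BMS minus CTR. In VAD minus VAS none was 2-fold apart and the median was 0.001.

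**Figure D4:**
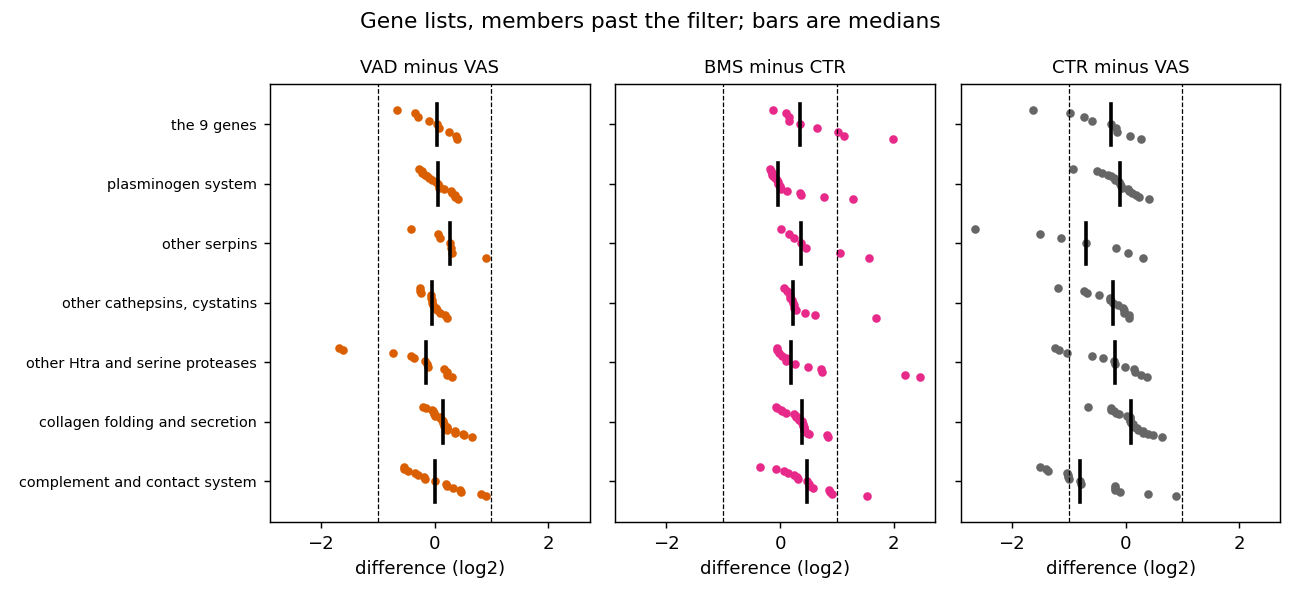
Difference in log2 expression (horizontal axis) for each gene past the filter in 7 gene lists (vertical axis), in VAD minus VAS (left), BMS minus CTR (middle) and CTR minus VAS (right), with black bars at the list medians and dashed lines at 2-fold. The 9 genes have medians of 0.05, 0.34 and -0.26, and the plasminogen system list of 0.05, -0.03 and -0.10.

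Genes of the retinoic acid response were read beside the 9 genes. Of 12 past the filter, 1 was at least 2-fold higher in each experiment and 0 lower. These were Dhrs3, by 1.04 in VAD minus VAS, and Ret, by 1.07 in BMS minus CTR. Among all genes 0.236% were that much higher and 0.41% lower in VAD, and 1.06% higher and 0.276% lower in BMS. Ret stood at 5.54, 5.74, 5.88 and 6.95 in VAS, VAD, CTR and BMS, so it passed the filter only through BMS. The list medians were 0.17 and 0.14, and 0.03 in CTR minus VAS with none 2-fold apart. Aldh1a2, which makes retinoic acid, was 0.88 higher in BMS than in CTR. Aldh1a2 too passed the filter only through BMS, at 6.41.

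Markers of adventitial fibroblasts had a median below 0 in CTR minus VAS and above 0 in BMS minus CTR. Serpine2, Serpinf1, Serping1, Plat, Ctsk and Htra3 had the same signs. A low CTR value gives both signs, and CTR was the lowest array for 6 of the 9 genes and for 27% of all genes. All 10 fibroblast markers lay above 0 in BMS minus CTR, 6 of them at least 2-fold higher, with a median of 1.14. In CTR minus VAS 9 of 10 lay below 0, 4 of them at least 2-fold lower, with a median of -0.72. In VAD minus VAS 8 of 10 lay below 0, with a median of -0.12 and none 2-fold apart, while Ctsk was 0.39 higher. Summed on the linear scale, the 10 markers stood in VAD, CTR and BMS at 0.918, 0.743 and 1.02 times their VAS sum. Cd34 stood at 10.38, 10.22, 9.01 and 10.72 in VAS, VAD, CTR and BMS, Clec3b at 9.21, 9.30, 7.72 and 9.23, and Pi16 at 10.87, 10.77, 8.74 and 9.95. Dcn, Dpt and Col14a1, also on the list, differed by 0.15, 0.24 and 0.27 in BMS minus CTR and by -0.08, -0.08 and 0.09 in CTR minus VAS. The part of fibroblast RNA in the values of the 9 genes was not tested.

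Of the other marker lists, those of smooth muscle, pericytes, macrophages and monocytes and airway epithelium had a median below 0 in BMS minus CTR. The osteoclast-type macrophage, alveolar epithelial, endothelial, lymphocyte and mesothelial medians had the fibroblast signs in BMS minus CTR and in CTR minus VAS. The 8 smooth muscle markers all lay below 0 in BMS minus CTR, with a median of -0.16, and all above 0 in VAD minus VAS, with 0.26. Their median was 0.004 in CTR minus VAS, and Des, Actg2, Myh11 and Smtn differed by 0.30 to 0.40 in VAD minus VAS. The 5 pericyte markers all lay below 0 in BMS minus CTR (median -0.30) and above 0 in VAD minus VAS (0.37) and in CTR minus VAS (0.54). Pdgfrb was 0.93 higher and Notch3 0.71 higher in CTR than in VAS. Macrophage and monocyte markers had medians of 0.04, -0.03 and -0.44 in VAD minus VAS, BMS minus CTR and CTR minus VAS, so they were low in both arrays of the antagonist experiment, as Plau was. Osteoclast-type macrophage markers, listed because osteoclasts make much cathepsin K, had medians of 0.12, 0.31 and -0.74 over Acp5 and Mmp9, and Dcstamp was below the filter on all arrays.

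The remaining marker lists gave medians of -0.59, 0.03 and -0.79 for alveolar epithelium, 0.11, -0.23 and 0.08 for airway epithelium and 0.08, 0.20 and -0.05 for endothelium, in the same order. For lymphocytes they were -0.08, 0.20 and -0.29, and for mesothelium 0.01, 0.02 and -0.33. Some single genes moved more than these medians. Of 5 alveolar markers past the filter, 2, Sftpc and Sftpa1, were at least 2-fold lower and 0 higher in VAD minus VAS and in CTR minus VAS. Sftpc differed by 1.82 in BMS minus CTR and by -3.54 in CTR minus VAS. Of 3 lymphocyte markers, Ptprc differed by -1.50 and Cd3e by 0.36 in CTR minus VAS. The part of the cells of these lists in the values of the 9 genes was not tested.

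**Figure D5:**
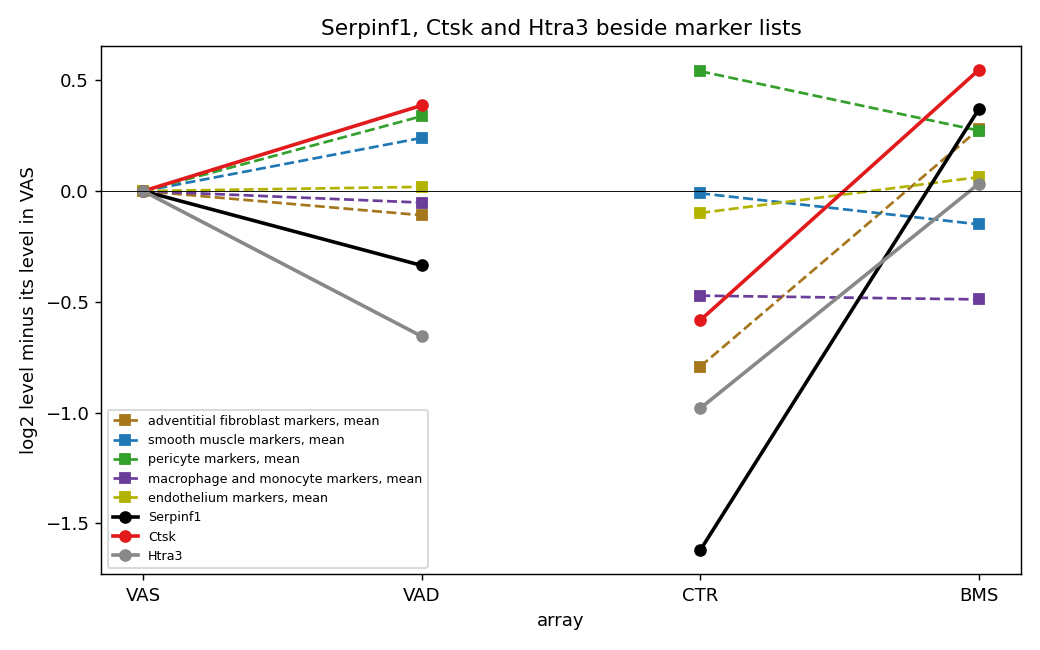
Log2 level minus its VAS level (vertical axis) on the 4 arrays (horizontal axis) for Serpinf1, Ctsk and Htra3 (solid lines, circles) and for the mean of 5 marker lists (dashed lines, squares), with lines joining the arrays of 1 experiment. The 3 genes and the means of the fibroblast and the endothelial markers lie below 0 in CTR and above 0 in BMS. The pericyte markers are highest in CTR.

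The genes nearest in pattern were found for the pair of genes with the widest range, by the Euclidean distance over the 4 arrays between log2 values centred on each gene's own mean, among 11895 genes. Nearest to Serpinf1 were Anpep, a surface aminopeptidase (distance 0.178), Emilin2, a matrix glycoprotein (0.189), and Cd34 (0.233). Anpep stood at 9.24, 8.97, 7.57 and 9.80 in VAS, VAD, CTR and BMS. Nearest to Ctsk were Pdgfra, a growth factor receptor on the fibroblast marker list (0.159), Scrn1 (0.190) and Ccn3, a matricellular protein (0.219). Pdgfra stood at 8.96, 9.38, 8.57 and 9.64. Of these 6 genes Cd34 and Pdgfra are on the fibroblast marker list. With 4 arrays many genes can lie this close, and the distances describe these arrays.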

How the data were processed

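RNA of sorted cells was measured on 4 Affymetrix expression arrays, 1 per group. The authors deposited log2 values computed by RMA (background correction, normalization between arrays, probe summary). The submitters' processing notes name affy 1.36.1 and R 2.15.1. The sources used here do not say which arrays were normalized together. RMA makes array distributions nearly equal and would hide a change common to most genes. Without scanner intensities, detection above background is unknown. Having 4 arrays limits the precision.

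Of 25206 probe sets, 23185 were named by GEO's platform annotation and a further 555, Serpine2 among them, by matching their Entrez number to the RefSeq gene table of GRCm38.p6. The other 1466 stayed unnamed. Comparisons are differences of log2 values with no test. The joint comparison used limma 3.58.1 (lmFit, eBayes, Benjamini-Hochberg over 12693 genes) in R 4.3.3. The VAD minus VAS difference was checked on simulated data. Its 2-fold count was checked there only for planted changes far above 2-fold, so not near its threshold. The limma calls on those data were recorded but not checked. Python 3.11.15 was used for sequences and figures.

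The 9 genes and all lists were chosen with earlier results of these data known. All 9 genes are named, with up to 4 genes per list by the largest difference in any comparison (some listed genes are not reported here) and the 3 nearest genes of the pair of genes with the widest range. Provisional names and microRNAs were left out of the nearest genes. Plg, Plaur, C1ra, C1s1, Klkb1, F12, Kng1, Masp2, C4b, Col1a1, Col1a2, Acta2, Dcn, Dpt, Col14a1, Scgb1a1, Krt8, Wt1 and Upk3b fall outside this rule and were named after their values were seen. Of the listed genes Serpina1a, Ctage5 and Lyz2 were not matched. Alternatives were other filters, thresholds, normalizations and controls, other limma settings, leaving out each array, and, added after seeing the data, platform names only.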

Additional observations from a re-analysis of the deposited data

Results flagged for a closer look

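Serpinf1, Htra3 and Serping1 differed in opposite directions in the diet and the antagonist experiment. The difference in BMS minus CTR less that in VAD minus VAS was 2.33 for Serpinf1, 1.67 for Htra3 and 0.25 for Serping1 on the log2 scale. With 1 array per group these differences were not tested, and 51.2% of all 12693 genes had opposite signs in the 2 experiments, against 3 of the 9 genes.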

How the results depend on the processing

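The counts over all genes moved with the filter, the threshold and the control. In VAD minus VAS, 30 higher and 52 lower genes became 52 and 93 with no filter, 18 and 34 with the 75th percentile filter, 181 and 272 at 1.5-fold, 6 and 8 at 3-fold and 51 and 29 with the controls averaged, and 179 were higher against CTR. Of the 9 genes, 1 was lower at 1.5-fold and 1 higher against CTR. In BMS minus CTR, 135 higher and 35 lower genes became 81 and 14 with the 75th percentile filter, 397 and 236 at 1.5-fold, 45 and 3 at 3-fold and 70 and 183 against VAS. With no filter 67 were lower, and 70 were higher when the mean of both controls served. Of the 9 genes, 3 higher became 1 at 3-fold, 0 against VAS and 1 with the controls averaged. In CTR minus VAS, 42 higher and 215 lower genes became 75 higher with no filter, 23 and 114 with the 75th percentile filter, 333 and 750 at 1.5-fold and 8 and 58 at 3-fold, and 3 of the 9 were lower at 1.5-fold. The filters and thresholds change which genes are counted by construction, and the cause of the moves with the control was not tested.

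Normalizing again by quantiles or cyclic loess changed no sign among 27 differences each; Htra3 in BMS minus CTR became 1.00 (0.9957) and 0.99 and so fell short of 2-fold. The other experiment's control changed 7 of 18 signs and the mean of both controls 3 of 18. The joint fit was repeated without 1 array and without the experiment block together, since with the block a fit on 3 arrays is the difference of the complete experiment and has no test. With the block kept, Serpinf1 is -0.34 without CTR or BMS and 1.99 without VAS or VAD, a change of sign. With both choices changed, the sign turned for Plau (-0.56 to 0.16), Serping1 (-0.10 to 0.16) and Htra3 (-0.31 to 0.67), while Serpinf1 was between 0.02 without CTR and 1.64 without VAS, and Ctsk between 0.47 and 1.05. Limma called 0 genes under each setting of that fit, and the adjusted p of the 9 genes ranged from 0.894 to 1. The joint fit pairs the arrays by experiment, as the labels give no replicate numbers, and the fit with no replicate block for the experiment also called 0 genes.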
